A study of Mus musculus with 36 samples.

Results

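Early thymic progenitors with high Flt3 (titled ETPFlt3hi, here ETP) were set against a bone marrow population, LSKFlt3hi IL7R+ (here LSK), that the labels name as thymic seeding progenitors. LSK stands for cells that lack lineage markers and carry Sca-1 and Kit, a fraction that holds stem cells and multipotent progenitors; high Flt3 and surface IL-7 receptor mark its lymphoid-primed end. The samples were chosen by title, and 12 of the 36 arrays of the series belong here, 6 ETP and 6 LSK. Each population has 3 arrays in deposit set 1, where the labels add thymus or bone marrow as tissue and say that a sample is a pool of several mice, and 3 in set 2, where they add neither. All mice were C57BL6 with an age label of 1 week and mixed sex, with no genotype or treatment given. The age label of 1 week also stands on the samples titled adult ETP, of which 2 are given here for their levels; title and age label conflict there, and which is right was not settled. RNA was amplified and labelled as cDNA. Values are log2 expression levels, so that a difference of 1 is 2-fold, and the sets were normalized apart; each difference is the average of those within the sets. A gene is read through its probe set with the highest mean level, and 34945 probe sets that name 1 gene cover 18193 genes. A gene was called when its adjusted p (limma, Benjamini-Hochberg over all probe sets) was under 0.05 and its difference at least 1. Errors of differences are standard errors. The spread between set 2 samples may be technical, since nothing says whether they came from separate mice.

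T cells arise from bone marrow progenitors that travel through blood to the thymus, enter it with the help of chemokine receptors and selectin ligands, and meet Notch ligands on thymic epithelium. Notch signalling turns on T cell genes and ends the B cell option, while myeloid and innate lymphoid options close later. In the marrow the same lymphoid-primed progenitors turn toward the B lineage when the transcription factor Ebf1 comes on, and they express the recombinase genes Rag1 and Rag2 that later join receptor gene segments.

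The genes behind the sorting gates came first. Kit, the stem cell factor receptor, read 8.19 to 8.43 on ETP arrays and 7.86 to 8.30 on LSK arrays of set 1, and 9.38 to 9.75 on ETP arrays and 8.64 to 8.75 on LSK arrays of set 2. It overlapped in set 1 and was not called (0.55 ± 0.23, adjusted p = 0.286). Flt3, the receptor both gates use, was high in both populations, between 9.19 and 10.42 on ETP arrays and between 10.50 and 11.22 on LSK arrays. Its difference of -0.93 ± 0.21 passed the p threshold (adjusted p = 0.00708) but not the fold, although the ETP arrays lay below the LSK arrays in each set; without ETP replicate 2 it was -1.01 and called. Il7r, part of the LSK gate, was lower in ETP (-1.84 ± 0.19, adjusted p = 5.39e-08). Il2ra, which encodes CD25 and comes on at the DN2 stage, rose by 1.09 ± 0.19 (adjusted p = 0.000323), and stood at 0.99 without ETP replicate 5 and 0.97 without ETP replicate 6, under the fold. Its other probe set, at 0.23, was not called, and the mean of both was 0.66. Ly6a, which encodes Sca-1, was not analysed here.

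Of the 18193 genes, 139 were called higher in ETP (0.764%) and 162 lower (0.890%). Among probe sets, 218 of 34945 were called higher (0.624%) and 302 lower (0.864%). All 301 called genes had the same sign in the sets, which a call on the average of the sets favours. Of them 200 differed by at least 1 in each set, 62 in set 1 only and 39 in set 2 only. On the same arrays 258 of them separated ETP from LSK without overlap in either set. Over all genes, 456 separated so with ETP higher (2.51%) and 479 with ETP lower (2.63%). The median difference over all genes was 0.015, with 9784 differences above 0 and 8409 below. The shares called over all genes, 0.764% higher and 0.890% lower, are the background for each list count below. Every ETP and LSK array lay nearest to another array of its own population, by root mean square distance over all genes. LSK replicates 1, 3 and 6 stood apart from the other LSK arrays in the granulocyte gene S100a9, and ETP replicate 3 from the other ETP arrays in immediate early genes, as given with those genes. Of the 301 called genes 246 were also called without LSK replicates 1 and 3, which is 81.7% of them and 92.5% of the 266 called then. The plot of set 1 against set 2 differences shows both differences of every gene.

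**Figure D1:**
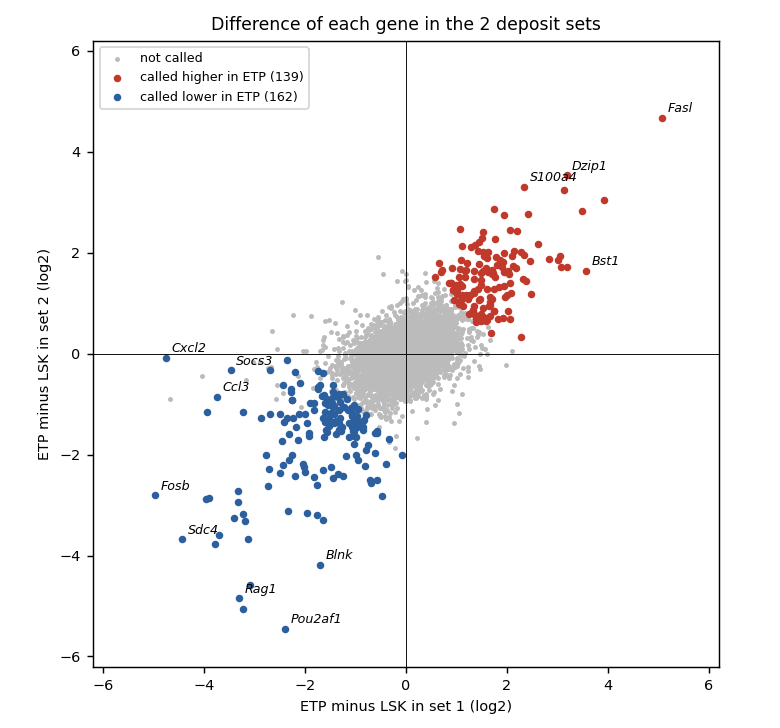
Difference between ETP and LSK (log2) of each of the 18193 genes in deposit set 1 (x axis) and set 2 (y axis); red points are the 139 genes called higher in ETP, blue points the 162 called lower, and grey points the rest. Fasl lies apart at the upper right, at 5.07 in set 1 and 4.67 in set 2, and Cxcl2 and Socs3 lie near 0 in set 2.

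Fasl, which encodes the death ligand of the Fas receptor and is known from cytotoxic T and natural killer cells, had the largest rise. It read 8.47, 8.66 and 8.56 on ETP arrays, against 3.69, 3.45 and 3.33 on LSK arrays of set 1. In set 2 it read 8.07, 8.56 and 8.55 on ETP arrays and 3.49, 4.01 and 3.66 on LSK arrays. The lowest ETP array was thus more than 4 log2 units above the highest LSK array. The difference was 4.87 ± 0.21 (adjusted p = 3.85e-17), and the second Fasl probe set gave 3.54 and was called as well. In these bulk samples, more cells of a type and more RNA per cell cannot be told apart. Fasl was also raised in adult ETP, at a mean of 6.80 (n = 2), and in DN2 thymocytes, at 6.60 ± 0.63 (SD, n = 3), while CLP, HSC, pro-B and DN3 means lay between 3.12 and 4.05.

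Of the 23 measured members of the cytotoxic and innate lymphocyte list, Fasl included, 4 were called higher and 1 lower, with a median difference of 0.091; over all genes 0.764% were called higher and 0.890% lower. On this list 7 members separated the arrays in each set with ETP higher and 2 with ETP lower, beside 2.51% and 2.63% of all genes. Beside Fasl the risers were Tox, a nuclear factor of T and innate lymphoid development (1.76 ± 0.25, adjusted p = 1.45e-05), Nkg7, a cytotoxic granule protein (1.39 ± 0.19, adjusted p = 6.17e-06), and Gzma, granzyme A (1.28 ± 0.21, adjusted p = 9.02e-05). Gzma stayed low, at 3.89 to 6.18 on ETP arrays against 3.24 to 3.93 on LSK arrays, with no overlap within a set. Perforin, Prf1, differed by -0.21 ± 0.12 and the innate regulators Zbtb16 and Id2 by 0.24 ± 0.10 and 0.21 ± 0.32, none of them called. Tox lay close between the populations on 1 array, LSK replicate 2, at 8.18 against 8.28 on the lowest ETP array. Fcer1g, the signalling chain of Fc receptors, fell (-1.09 ± 0.20, adjusted p = 0.000707), and was not called without LSK replicates 1 and 3.

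**Figure D2:**
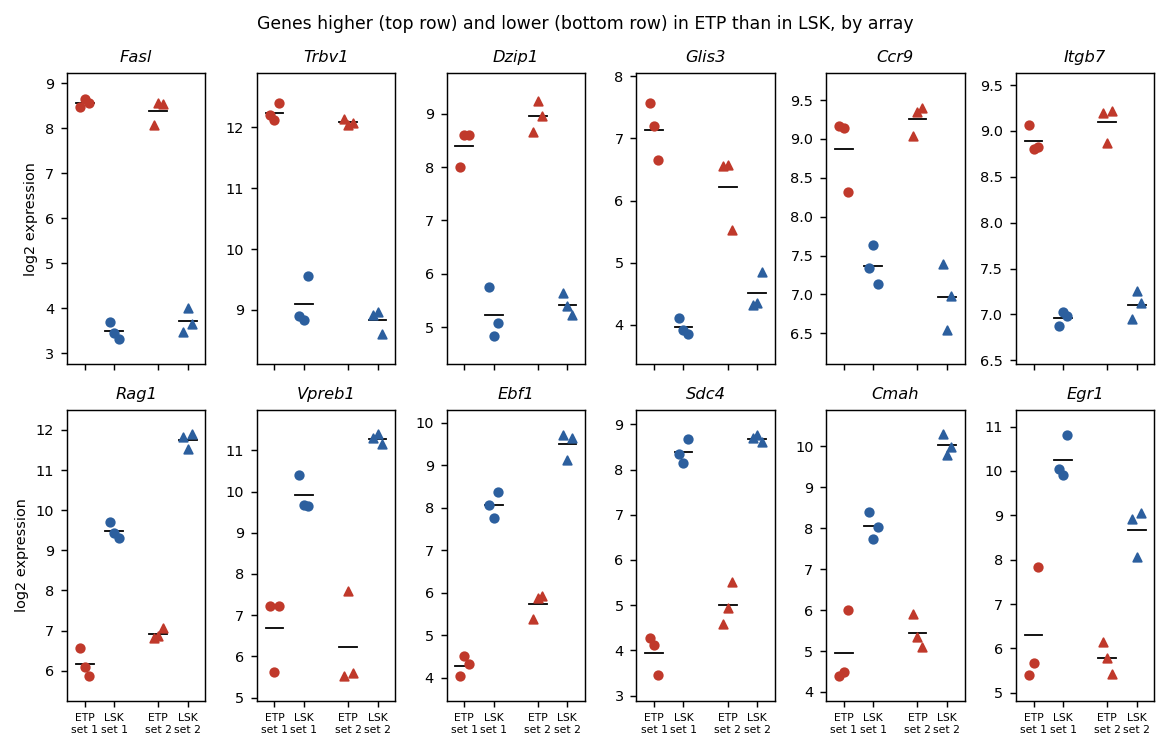
Log2 expression of 12 genes on each array (points; circles set 1, triangles set 2) with the mean of each 3 arrays (bars); ETP in red, LSK in blue, each panel on its own scale that does not start at 0. In each of the 12 panels the ETP and LSK arrays do not overlap within a set, and the top row is higher and the bottom row lower in ETP.

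Genes for entry into the thymus were called in small number. On the homing and adhesion list 2 of 16 measured members were called higher and none lower, beside 0.764% and 0.890% of all genes. The median difference was 0.061. Ccr9, the receptor of the thymic chemokine Ccl25, read 9.16, 9.14 and 8.32 on ETP arrays, against 7.34, 7.63 and 7.14 on LSK arrays of set 1, and 9.03, 9.35 and 9.40 on ETP arrays against 7.39, 6.55 and 6.98 on LSK arrays of set 2. It rose by 1.90 ± 0.19 (adjusted p = 2.41e-08), and 3 of its other 4 probe sets were also called higher. Itgb7, the integrin beta7 chain, rose by 1.96 ± 0.22 (adjusted p = 1.36e-07), with 8.80 to 9.21 on ETP arrays and 6.88 to 7.25 on LSK arrays. In set 2 Itgb7 averaged 9.09 in ETP and 9.11 in adult ETP, and Ccr9 averaged 9.26 in ETP and 8.89 in adult ETP. Selplg, the selectin ligand PSGL-1 (0.06 ± 0.18), Ccr7 (-0.73 ± 0.27) and Cd44 (0.38 ± 0.15) were not called. S1pr1, the receptor that lets cells leave tissues, stood at -1.04 ± 0.30 and just missed the p threshold (adjusted p = 0.0534). Its difference was -0.21 in set 1 and -1.87 in set 2. Without LSK replicate 2, LSK replicate 3 or ETP replicate 2, 1 member of the homing list was called lower.

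Some enzymes of sialic acid and selectin ligands, which build the sugar ends that selectins and Siglecs bind, had larger differences. Of 18 measured enzymes 3 were called lower and 1 higher, beside 0.890% and 0.764% of all genes, with a median of -0.074. Cmah, which turns the common sialic acid into its glycolyl form, fell by 3.84 ± 0.28 (adjusted p = 1.8e-11), and 4 of its other 5 probe sets were called lower too. It read 4.39, 4.48 and 6.01 on ETP arrays and 8.40, 7.74 and 8.03 on LSK arrays of set 1, and 5.92, 5.34 and 5.10 on ETP arrays and 10.30, 9.80 and 9.98 on LSK arrays of set 2. The sialyltransferases St3gal6 (-3.40 ± 0.21, adjusted p = 5.44e-13) and St6gal1 (-2.73 ± 0.23, adjusted p = 4.13e-10) fell as well. The lowest LSK array stood above the highest ETP array in each set for all 3 genes. St3gal6 had 1 of its other 4 probe sets called, so its size rests on the probe set used. Chst2, a sulfotransferase of selectin ligands, rose by 1.76 ± 0.33 (adjusted p = 0.000655).

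Genes that Notch acts on or through changed in part. On this list 3 of 21 measured members were called higher and none lower, beside 0.764% and 0.890% of all genes. The median was 0.080. Deptor, an inhibitor of the mTOR kinase, rose by 2.39 ± 0.24 (adjusted p = 2.25e-08) and read 9.16, 9.11 and 9.45 on ETP arrays against 6.66, 6.23 and 5.64 on LSK arrays of set 1, with 8.25, 8.23 and 8.79 on ETP arrays against 6.68, 6.75 and 6.67 on LSK arrays of set 2. It was at 9.12 to 9.32 in HSC as well, so the LSK, CLP and pro-B means, 6.18 to 6.70, are the low ones. Nrarp, a Notch target that damps the pathway, rose by 1.32 ± 0.25 (adjusted p = 0.000937), at 1.93 in set 1 and 0.71 in set 2, and its other probe set, at 0.73, was not called. Notch1 itself (0.17 ± 0.15), Hes1 (0.48 ± 0.19) and Dtx1 (-0.10 ± 0.24), classic targets of the pathway, were not called. Notch3, at 0.996 ± 0.22, passed the p threshold (adjusted p = 0.00412) but just missed the fold. Its ETP arrays lay above the LSK arrays in each set.

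Of 18 measured T cell surface and signalling genes 3 were called higher and none lower, beside 0.764% and 0.890% of all genes. The median was 0.309. Thy1, the surface glycoprotein of thymocytes, read 8.37, 7.21 and 7.76 on ETP arrays and 4.98, 6.16 and 3.72 on LSK arrays of set 1, and 7.86, 7.56 and 6.70 on ETP arrays and 5.22, 6.09 and 5.15 on LSK arrays of set 2. It rose by 2.35 ± 0.31 (adjusted p = 4.39e-06), and reached 11.94 and 12.30 on average in DN2 and DN3 of set 1. Cd7, an early T and natural killer cell surface protein, rose by 1.90 ± 0.17 (adjusted p = 1.1e-09) and averaged 6.69 in ETP of set 1, against 4.62 in DN2 and 4.41 in DN3. Lcp2, the adaptor SLP-76 below the T cell receptor, rose by 1.49 ± 0.14 (adjusted p = 1.09e-08), though its other probe set at 0.46 was not called. Cd3e differed by 0.02 ± 0.13 and stayed at 4.45 to 5.21 on ETP arrays. Cd28 stood at -1.74 ± 0.54, with ETP arrays below LSK arrays in each set, and was not called (adjusted p = 0.0819). With the 12 ETP and LSK arrays alone, or with array weights, 1 member of this list was called lower.

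Of 14 measured T lineage transcription factors 1 was called higher and 1 lower, beside 0.764% and 0.890% of all genes. The median was -0.032. Gata3, which T cell development needs from its start, rose by 1.16 ± 0.24 (adjusted p = 0.00249), and was at 0.92 and not called without LSK replicates 1 and 3. Ets1, which matures lymphocytes, fell by 1.41 ± 0.21 (adjusted p = 2.6e-05), and its other 3 probe sets fell too. Bcl11b, the factor of T cell commitment, differed by 0.32 ± 0.19 and Lef1 by 0.05 ± 0.18, neither called. Tcf7 was not analysed here.

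Of 10 measured T cell receptor segments 3 were called higher and none lower, beside 0.764% and 0.890% of all genes. The median was 0.064. Trbv1, the first variable segment of the beta chain locus, rose by 3.19 ± 0.19 (adjusted p = 9.61e-14), and its second probe set gave 3.14. It read 12.04 to 12.40 on ETP arrays and 8.60 to 9.56 on LSK arrays, against means of 12.77 in DN2 and 12.08 to 12.41 in DN3, so ETP were at the level of the later thymocytes. HSC stood at 3.94 in set 1 and 4.62 in set 2. Trbv13-2 (1.40 ± 0.21, adjusted p = 3.32e-05) and Trgv4, a gamma chain segment (1.21 ± 0.17, adjusted p = 8.05e-06), rose less. Of the other Trgv4 probe sets, that at 2.23 was called higher and that at 0.08 was not called. The arrays read the transcript and not its rearrangement. Of 19 immunoglobulin segments 1 was called, Ighv14-2, as lower (-1.54 ± 0.21, adjusted p = 8.89e-06), and the median was 0.005.

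Of 12 measured V(D)J recombination genes 3 were called lower, Rag1, Rag2 and Dntt, and none higher, beside 0.890% and 0.764% of all genes. Of the 12 differences 7 were above 0, and the median was 0.016. Rag1, part of the recombinase, read 6.58, 6.08 and 5.86 on ETP arrays and 9.71, 9.44 and 9.30 on LSK arrays of set 1, and 6.80, 6.86 and 7.05 on ETP arrays and 11.83, 11.52 and 11.90 on LSK arrays of set 2. It fell by 4.08 ± 0.25 (adjusted p = 1.85e-13), and the groups lay more than 2 log2 units apart. DN3 averaged 12.17 in set 1 and 12.65 in set 2, so ETP sat below the bone marrow population before them and the thymocytes after them. Dntt, the polymerase that adds untemplated bases at the joints, fell by 2.09 ± 0.23 (adjusted p = 1.81e-07) with all 3 probe sets called, yet kept 8.75 to 11.51 on ETP arrays. In set 2 Dntt averaged 11.10 in ETP and 12.65 in adult ETP. Rag2 fell by 1.53 ± 0.38 (adjusted p = 0.0155), with overlap in set 1 and an adjusted p of 0.0503 without ETP replicate 4. The end-joining genes of the list were not called.

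Some members of both B lineage lists were lower in ETP. Of 18 measured B cell receptor and surface genes 7 were called lower and 1 higher, with a median of -0.70. Of 13 measured B lineage transcription factors 5 were called lower and none higher, with a median of -0.54. Over all genes 0.890% were called lower and 0.764% higher. Ebf1, the factor that starts the B cell programme, fell by 3.77 ± 0.14 (adjusted p = 1.73e-18) with all 5 probe sets called. It read 4.05, 4.50 and 4.31 on ETP arrays and 8.07, 7.77 and 8.36 on LSK arrays of set 1, and 5.39, 5.88 and 5.94 on ETP arrays and 9.73, 9.13 and 9.65 on LSK arrays of set 2. HSC averaged 4.63 and 5.77 in these sets, close to ETP. Vpreb1, part of the surrogate light chain of B cell precursors, fell by 4.14 ± 0.49 (adjusted p = 5.57e-07), and read 5.52 to 7.58 on ETP arrays and 9.66 to 11.39 on LSK arrays. Pou2af1, a coactivator of immunoglobulin genes, fell by 3.92 ± 0.45 (adjusted p = 2.75e-07). Cd79a, a chain of the B cell receptor (-2.47 ± 0.32, adjusted p = 3.13e-06), and Foxo1, an activator of Rag1 and Il7r (-1.87 ± 0.24, adjusted p = 1.82e-06), fell as well. Of the other 3 Foxo1 probe sets 2 were called lower, and that at 0.02 was not called.

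Some B lineage genes had unequal differences in the sets, although the median of the transcription factor list was -0.50 in set 1 and -0.55 in set 2. Pou2af1 read 5.03 to 6.26 on LSK arrays of set 1 and 9.26 to 9.48 on those of set 2, while ETP arrays stayed at 3.35 to 4.50, so that its difference was -2.40 in set 1 and -5.45 in set 2; the change between the sets was not called (-3.06, adjusted p = 0.211). Blnk, the adaptor below the B cell receptor, differed by -1.70 in set 1 and -4.18 in set 2, and the change of the difference was itself called (-2.48, adjusted p = 0.0424). Pax5, which fixes B cell identity, was at -0.48 in set 1 and -2.82 in set 2, and its call (-1.65 ± 0.35, adjusted p = 0.00299) is one of set 2: with set 1 alone its adjusted p was 0.479. The change between the sets was not called for Pax5 either (-2.34, adjusted p = 0.12). The other Pax5 probe set, at -0.93, was under the fold and not called. Over all probe sets the difference between ETP and LSK changed between the sets in 9 of 34945 (0.0258%), while 1387 had an unadjusted p under 0.05. Bst1, CD157, a surface enzyme first known from marrow stroma and pre-B cells, went the other way, up by 2.61 ± 0.29 (adjusted p = 1.67e-07), and was at 9.18 in DN3 of set 1. The committed B cell markers had 3 of 9 called lower, beside 0.890% of all genes. These were Pax5, Cd72 and Cd79b, which the B lineage lists also hold, and none was called in set 1 alone. The mean level of the committed B cell markers ranged from 4.87 to 5.15 on ETP arrays and from 5.33 to 5.45 on LSK arrays in set 1. In set 2 it ranged from 5.55 to 5.86 on ETP arrays and from 6.57 to 6.72 on LSK arrays.

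Interferon-induced genes stood out among the genes with the largest rises, where Ifit1bl1, Slfn5, Ifit1 and Usp18 were 4 of the first 12. A list of 49 such genes was therefore put together after the values had been seen, so its count is a description and has no test. Of 46 measured members 17 were called higher in ETP and none lower, beside 0.764% and 0.890% of all genes. Of the differences 44 were above 0, beside 9784 of 18193 over all genes, and the median was 0.73. The median was 0.76 in set 1 and 0.74 in set 2. The mean level of the list ran from 7.48 to 7.88 on ETP arrays and from 6.64 to 6.76 on LSK arrays of set 1, and from 7.89 to 8.09 on ETP arrays and from 6.86 to 7.25 on LSK arrays of set 2. The ETP arrays were the highest of all populations in each set, ahead of adult ETP at 7.53 and 7.75 and of HSC at 7.34 to 7.46 in set 2.

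The members cover sensing, effector and feedback roles. Ifit1, which binds foreign RNA caps, rose by 2.43 ± 0.37 (adjusted p = 4.43e-05), and read 9.14, 9.15 and 9.02 on ETP arrays and 5.90, 7.01 and 5.38 on LSK arrays of set 1, and 8.78, 8.51 and 8.97 on ETP arrays and 8.10, 6.44 and 6.12 on LSK arrays of set 2. LSK replicate 4 thus came within 1 log2 unit of the ETP arrays. Usp18, the protease that removes ISG15 and dampens the type I interferon receptor, rose by 2.40 ± 0.20 (adjusted p = 3.99e-10). Rsad2, viperin, an enzyme that blocks viral replication, rose by 2.34 ± 0.24 (adjusted p = 4.41e-08), and read 9.24 to 9.94 on ETP arrays against 6.35 to 7.77 on LSK arrays. Oasl2, of the oligoadenylate synthetase family, rose by 2.30 ± 0.23 (adjusted p = 1.77e-08), and the RNA sensor Ifih1 by 1.42 ± 0.20 (adjusted p = 1.56e-05). The factors that drive these genes had smaller differences: Irf7 differed by 0.59 ± 0.13 (adjusted p = 0.00339), under the fold, and Irf9 by 0.22 ± 0.20 and Stat2 by -0.00 ± 0.23, neither called. Rsad2 averaged 9.67 in ETP of set 1 and 9.36 in HSC, so a high level of it is not found in ETP alone.

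Interferon acts through a response element in promoters, read here as GAAANNGAAA on either strand, where N is any base. Promoter windows of 300 bases (250 before and 50 after the gene's start, RefSeq, build GRCm38.p6) were at hand for 36 of the 46 measured genes. The motif lay in a window of 19 of these 36 genes, and of 9 of the 13 called higher that had a window, against 3.99% of all 27025 genes in the table. The list was made of interferon-induced genes, so a share above that of all genes was set by its choice. These shares were no test of an interferon response in ETP. A match is a description of letters and not of binding. The windows of 4 of the called genes are shown for the place of the motif, which is in capitals, from 5′ to 3′ on the gene's strand, with coordinates on GRCm38.p6:
Ifit1 (chr19:34640639-34640938, strand plus): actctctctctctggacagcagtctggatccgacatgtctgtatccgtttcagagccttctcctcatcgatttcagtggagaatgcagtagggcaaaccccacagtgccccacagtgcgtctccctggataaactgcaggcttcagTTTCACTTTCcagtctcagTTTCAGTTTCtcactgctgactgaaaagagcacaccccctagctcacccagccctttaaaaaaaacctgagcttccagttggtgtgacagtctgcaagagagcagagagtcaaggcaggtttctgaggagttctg
Ifit3 (chr19:34583279-34583578, strand plus): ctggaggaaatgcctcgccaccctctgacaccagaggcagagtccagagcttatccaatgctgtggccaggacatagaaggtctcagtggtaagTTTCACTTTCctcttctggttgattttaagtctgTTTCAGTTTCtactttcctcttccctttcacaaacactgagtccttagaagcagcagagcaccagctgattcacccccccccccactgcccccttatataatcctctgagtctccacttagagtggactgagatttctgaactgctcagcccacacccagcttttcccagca
Rsad2 (chr12:26456403-26456702, strand minus): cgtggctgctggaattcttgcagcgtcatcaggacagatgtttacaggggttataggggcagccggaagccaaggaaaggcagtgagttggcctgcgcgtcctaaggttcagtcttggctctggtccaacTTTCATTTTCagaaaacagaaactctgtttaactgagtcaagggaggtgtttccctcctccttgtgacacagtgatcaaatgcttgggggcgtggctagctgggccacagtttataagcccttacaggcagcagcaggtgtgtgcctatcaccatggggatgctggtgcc
Irgm2 (chr11:58214727-58215026, strand plus): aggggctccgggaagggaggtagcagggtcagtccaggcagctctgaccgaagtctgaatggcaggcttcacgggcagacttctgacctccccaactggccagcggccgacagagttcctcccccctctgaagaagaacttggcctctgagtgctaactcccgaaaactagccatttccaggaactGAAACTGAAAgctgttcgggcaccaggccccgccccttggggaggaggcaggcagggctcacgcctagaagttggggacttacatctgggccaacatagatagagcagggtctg
In Ifit1 the matches start 104 and 85 bases before the gene's start, and in Ifit3 156 and 122 bases before it. Rsad2 has its match 120 bases before the start and Irgm2 64 bases before it; the printed strand holds the motif itself in Irgm2 and its reverse complement in the other 3 genes. Ifit3, a partner of Ifit1, rose by 1.80 ± 0.23 (adjusted p = 1.61e-06), and Irgm2, a GTPase against intracellular microbes, by 1.83 ± 0.28 (adjusted p = 4.16e-05).

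**Figure D3:**
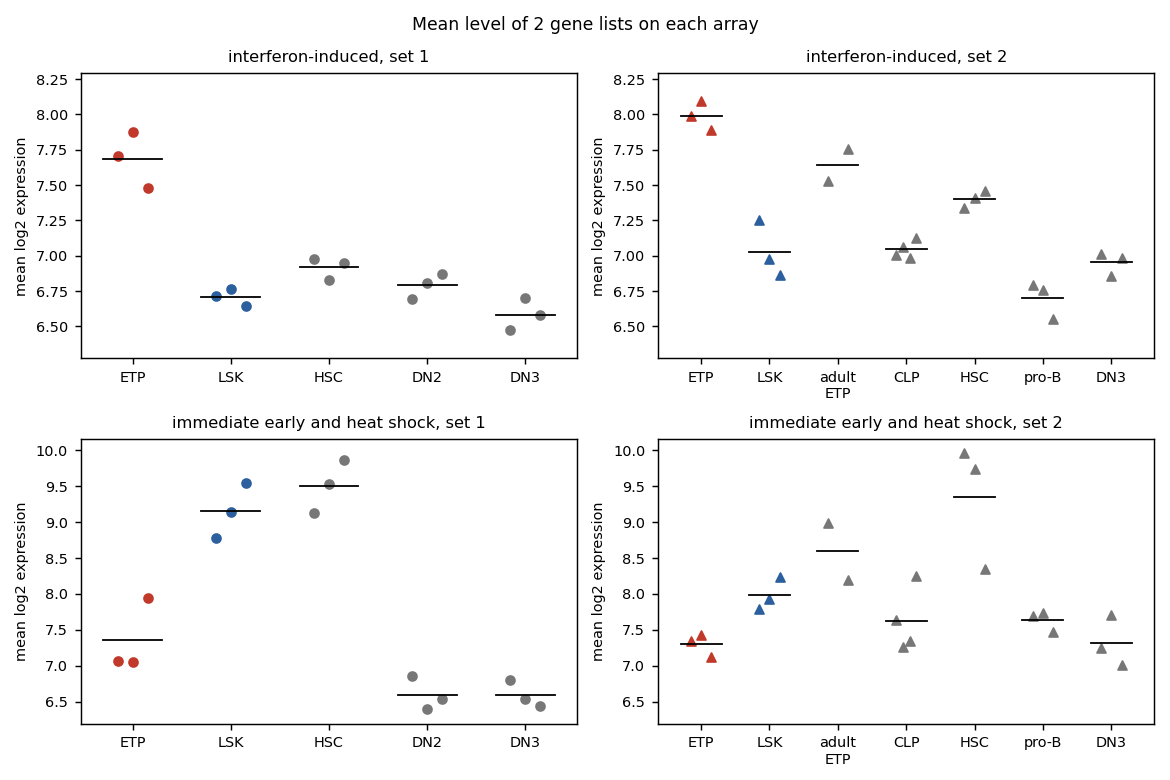
Mean log2 expression of the measured members of the interferon-induced list (top) and of the immediate early and heat shock list (bottom) on each array, with set 1 at left and set 2 at right; points are arrays, bars the mean of a population, and the axes do not start at 0. For the interferon list all ETP arrays lie above all LSK arrays in each set, and for the other list ETP lie below LSK, with ETP replicate 3 at 7.94 the highest of its 3 arrays in set 1.

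Immediate early genes are switched on within minutes of a signal. Of 22 measured members of the immediate early and heat shock list 7 were called lower in ETP and none higher. Over all genes 0.890% were called lower and 0.764% higher. On the list 19 differences were below 0, beside 8409 of 18193 over all genes. Its median was -1.04, at -1.61 in set 1 and -0.46 in set 2. Egr1, a zinc finger factor, read 5.40, 5.67 and 7.84 on ETP arrays and 10.05, 9.91 and 10.81 on LSK arrays of set 1, and 6.15, 5.78 and 5.43 on ETP arrays and 8.92, 8.05 and 9.04 on LSK arrays of set 2. It fell by 3.42 ± 0.45 (adjusted p = 4.39e-06). Fos, part of the AP-1 factor, fell by 3.65 ± 0.68 (adjusted p = 0.0007), and Fosb was lower (-3.89 ± 0.72, adjusted p = 0.000676). ETP replicate 3 was the highest ETP array for all 3 genes, and no ETP array reached an LSK array of its set. Zfp36, which degrades cytokine mRNA, fell by 2.21 ± 0.26 (adjusted p = 5.63e-07) and Klf2, a factor of lymphocyte traffic, was lower too (-1.95 ± 0.42, adjusted p = 0.00369). The heat shock members Hspa1a (-0.06), Hspa8 (0.07) and Hspa1b (0.67) were not called. Without LSK replicates 1 and 3 the count was 4, in set 1 alone 10 and in set 2 alone 3. In set 2 Fos averaged 6.15 in ETP, 8.70 in adult ETP and 11.85 in HSC.

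The genes that NF-kappaB turns on were also listed after the values had been seen. Of 18 such genes 5 were called lower and none higher, beside 0.890% and 0.764% of all genes. The median was -0.98 in set 1 and -0.09 in set 2. Cxcl2, a chemokine for neutrophils, read 2.46, 2.66 and 2.80 on ETP arrays and 5.28, 7.81 and 9.11 on LSK arrays of set 1, and 3.03, 3.10 and 3.25 on ETP arrays and 3.25, 3.14 and 3.25 on LSK arrays of set 2. All of its difference (-2.42 ± 0.64, adjusted p = 0.0251) lay in set 1, and the change between the sets was called (4.68, adjusted p = 0.019). Its call was lost without LSK replicate 2 (-2.05), LSK replicate 3 (-1.77), ETP replicate 1 (-2.18), ETP replicate 2 (-2.22) or ETP replicate 3 (-2.25). Ccl3, a macrophage chemokine, differed by -3.75 in set 1 and -0.85 in set 2, Socs3, the cytokine signal inhibitor, by -3.47 and -0.33, and Phlda1 by -3.95 and -1.15. The NF-kappaB count was 3 without any 1 of LSK replicate 3 and ETP replicates 1, 2 and 3, 2 without LSK replicates 1 and 3 together, and 1 in set 2 alone.

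The median of the myeloid receptors and transcription factors was -0.40. Of the 18 measured 5 were called lower and 2 higher, beside 0.890% and 0.764% of all genes. Neither count was stable: 3 were called lower without any 1 of LSK replicates 1, 2 and 3 and ETP replicates 1 and 2, or without LSK replicates 1 and 3 together, and 2 in set 2 alone. None was called higher without any 1 of LSK replicates 2 and 3 and ETP replicates 2 and 5, and 1 without any 1 of ETP replicates 1 and 6 and LSK replicates 5 and 6. Irf8, which directs monocyte and dendritic cell fate, fell by 1.95 ± 0.29 (adjusted p = 3.41e-05) and Cebpa, the factor of granulocyte and monocyte progenitors, was lower as well (-1.51 ± 0.23, adjusted p = 3.44e-05). Csf1r, the receptor of macrophage growth factor, was higher (1.63 ± 0.44, adjusted p = 0.0286), with 8.62 to 9.70 on ETP arrays and 6.17 to 8.84 on LSK arrays. It overlapped in set 1, where LSK replicate 1 read 8.84, its other 2 probe sets were not called, and the call was lost without any 1 of ETP replicates 1, 2, 5 and 6 and LSK replicates 2, 3, 5 and 6, with differences from 1.41 to 1.64. In set 1 Csf1r averaged 9.18 in ETP and 3.17 in DN2, and in set 2 it averaged 8.76 in ETP and 9.60 in adult ETP. Mpeg1, perforin-2 of phagocytes, fell by 3.33 ± 0.21 (adjusted p = 3.68e-13) and the chemokine Ccl9 was lower (-3.39 ± 0.24, adjusted p = 6.82e-12). The other Ccl9 probe set, at -0.75, was not called. In set 2 Mpeg1 averaged 8.97 in LSK and 8.76 in CLP, and 4.51 to 5.72 in the other 5 populations.

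Late granulocyte and red cell transcripts were uneven among the LSK arrays. S100a9, a neutrophil protein, read 4.82, 4.74 and 4.81 on ETP arrays and 11.81, 5.76 and 10.83 on LSK arrays of set 1, and 5.51, 5.58 and 5.52 on ETP arrays and 5.09, 5.56 and 8.68 on LSK arrays of set 2. LSK replicates 1, 3 and 6 were thus high and the other 3 were not, and the difference was not called (-2.79 ± 0.95, adjusted p = 0.136). The mean of the 12 measured late granulocyte markers ran from 3.88 to 4.04 on ETP arrays and from 4.08 to 6.48 on LSK arrays of set 1, and from 4.74 to 4.94 on ETP arrays and from 4.58 to 5.33 on LSK arrays of set 2; limma called none, and 3 had an unadjusted p under 0.05. The 7 red cell markers ran from 3.95 to 4.03 on ETP arrays and from 4.13 to 5.49 on LSK arrays of set 1. In set 2 they ran from 4.73 to 4.90 on ETP arrays and from 4.78 to 5.10 on LSK arrays. For these markers limma called none, and 2 had an unadjusted p under 0.05. Such a p was found for 2005 of all 18193 genes.

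Other marker lists for cells that a gate could hold gave few calls. Over all 18193 genes 0.764% were called higher and 0.890% lower, and 2005 had an unadjusted limma p under 0.05. Of 12 macrophage markers limma called none, with 1 at an unadjusted p under 0.05. Of 12 dendritic cell markers 1 was called higher, Lair1, an inhibitory collagen receptor (2.14 ± 0.36, adjusted p = 0.000167). The dendritic cell markers, which hold the interferon-induced Bst2 and Irf7, averaged 5.46 to 5.57 on ETP arrays and 5.14 to 5.26 on LSK arrays of set 1, and 6.01 to 6.08 on ETP arrays and 5.70 to 5.71 on LSK arrays of set 2, and their part in the interferon difference was not tested. The later thymocyte markers ran from 4.97 to 5.25 on ETP arrays and from 5.03 to 5.15 on LSK arrays of set 1, which overlap, and from 5.41 to 5.48 on ETP arrays and from 5.53 to 5.68 on LSK arrays of set 2, where ETP lay below. Of these markers 1 of 9, Rag2, was called, as lower. Of 12 thymic epithelium and stroma markers 1 was called higher, the growth factor receptor Pdgfrb (1.44 ± 0.15, adjusted p = 7.17e-08), with 8.99 to 9.58 on ETP arrays and 7.50 to 8.09 on LSK arrays. Its second probe set gave 2.52, and DN2 averaged 8.90. Of 10 natural killer and innate lymphoid markers 1 was called higher, Gzma, and the median difference was 0.102. Their mean level ran from 4.13 to 4.38 on ETP arrays and from 4.12 to 4.27 on LSK arrays of set 1, which overlap, and from 5.03 to 5.22 on ETP arrays and from 4.77 to 4.98 on LSK arrays of set 2, which do not. Their part in the differences of Fasl, Nkg7 and Gzma was not tested. Of 10 primary granule genes 1 was called higher, Nkg7, and none lower, with a median of -0.145.

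**Figure D4:**
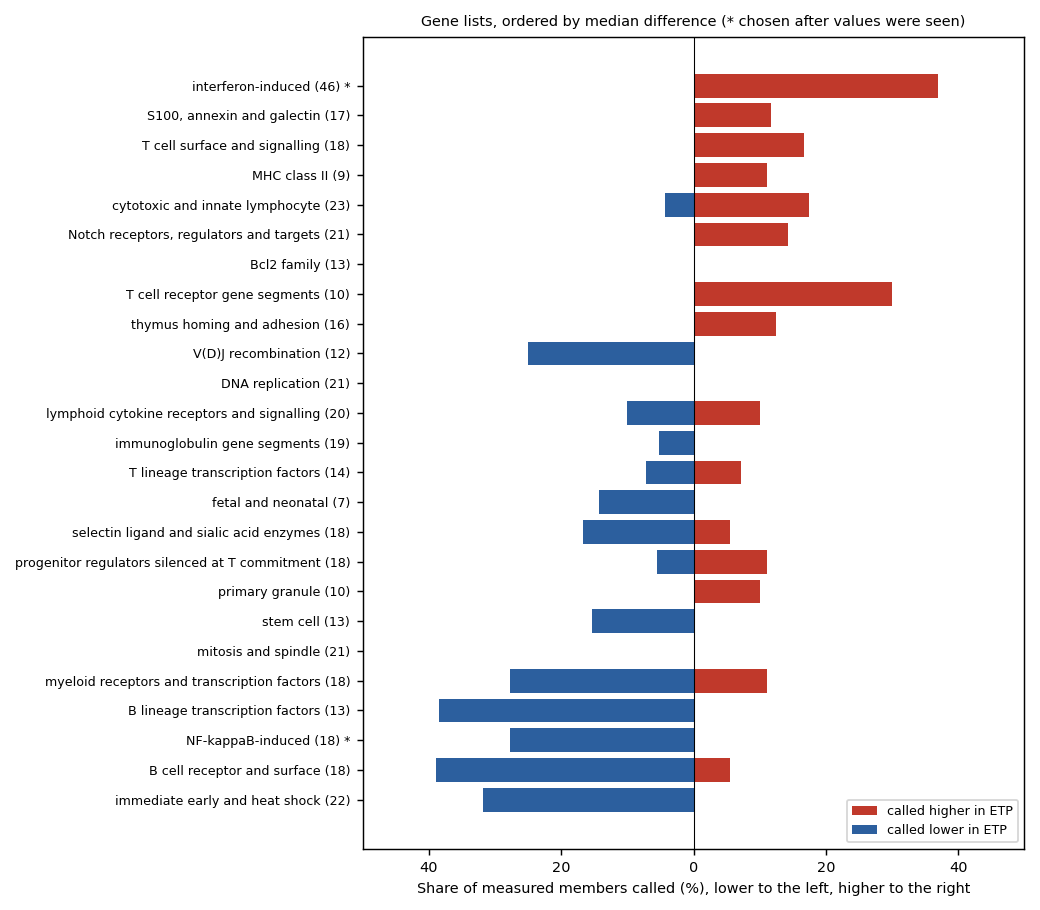
Share of the measured members of each gene list (number in brackets) that was called higher in ETP (red, to the right) or lower (blue, to the left), in percent, with lists ordered by their median difference. B lineage and immediate early lists lie at the bottom and the interferon-induced list, chosen after the values were seen, at the top. Over all genes 0.764% were called higher and 0.890% lower.

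Calcium-binding and membrane-scaffold genes of the S100, annexin and galectin list had 2 of 17 called higher, none lower, and a median of 0.41. Over all genes 0.764% were called higher and 0.890% lower. S100a4 read 9.93, 9.74 and 9.28 on ETP arrays and 8.04, 6.97 and 6.91 on LSK arrays of set 1, and 8.96, 9.35 and 9.25 on ETP arrays and 5.91, 5.73 and 6.00 on LSK arrays of set 2. It rose by 2.82 ± 0.34 (adjusted p = 5.87e-07). S100a6 rose by 1.97 ± 0.27 (adjusted p = 9.31e-06). In set 2 alone 6 members were called higher, and 4 without LSK replicates 1 and 3. S100a4 was at 5.81 in DN2 and 3.49 in DN3 on average, so the high level did not last into the later thymocytes.

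Regulators of progenitors that T cell commitment silences were mixed, with 2 of 18 called higher, 1 lower and a median of -0.12. Over all genes 0.764% were called higher and 0.890% lower. Mycn, a growth-driving factor of the Myc family, rose by 1.31 ± 0.20 (adjusted p = 2.8e-05) and Nfe2, known from platelet precursors, by 1.23 ± 0.21 (adjusted p = 0.000152). Of the other Mycn probe sets, that at 2.31 was called higher and that at -0.16 was not called. Mycn differed by 0.92 in set 1 and 1.70 in set 2, and was not called in set 1 alone (adjusted p = 0.135). Mecom, a stem cell factor, fell by 1.28 ± 0.31 (adjusted p = 0.0107), at -2.19 in set 1 and -0.37 in set 2, and was not called without LSK replicates 1 and 3. Its other 2 probe sets, at -0.31 and 0.11, were not called, and the mean over its probe sets was -0.49. Without LSK replicate 4 or without LSK replicate 6, 2 members of this list were called lower. Spi1, which encodes PU.1, differed by -0.25 ± 0.22 and Bcl11a by 0.16 ± 0.15, neither called. Hmga2, a chromatin protein of fetal and young stem cells, fell by 1.25 ± 0.18 (adjusted p = 1.42e-05) with all 4 probe sets called, and still read 10.45 to 11.12 on ETP arrays. It was the only call on the fetal and neonatal list of 7, whose median was -0.072. Of 13 stem cell genes 2 were called lower and none higher, with a median of -0.254; beside Egr1 this was Mllt3 (-1.10 ± 0.14, adjusted p = 1.83e-06), which was -0.99 and under the fold without ETP replicate 4. The call of Mllt3 rests on the probe set used: its other 2 gave -0.54 and -0.34 and were not called, and the mean over its probe sets was -0.66. Of 20 lymphoid cytokine receptor and signalling genes 2 were called higher and 2 lower, with a median of 0.010. Il18r1, the interleukin-18 receptor, was among the higher (1.58 ± 0.28, adjusted p = 0.000412). Its ETP and LSK arrays did not separate in each set, and in set 2 alone it was at 1.15 and not called (adjusted p = 0.051).

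Genes of the cell cycle and of survival gave no calls on the probe sets that stand for them. All 21 measured mitosis and spindle genes had a difference below 0, beside 8409 of 18193 over all genes, with a median of -0.36. For them limma called none, and 10 had an unadjusted p under 0.05, beside 2005 of all 18193 genes. The lowest adjusted p among these probe sets was that of Nusap1 (-0.48 ± 0.15, adjusted p = 0.0902). Of the other probe sets of Aspm, a spindle pole protein, 3 passed the p threshold but not the fold, at -0.61 (adjusted p = 0.00443), -0.61 (adjusted p = 0.0183) and -0.75 (adjusted p = 0.0189). The list's mean was 9.20 to 9.54 on ETP arrays and 9.44 to 9.76 on LSK arrays of set 1, which overlap, and 9.51 to 9.58 on ETP arrays and 9.95 to 10.01 on LSK arrays of set 2, which do not. The 21 DNA replication genes had a median of 0.012 and the 13 Bcl2 family genes one of 0.072, and limma called none of either, with 0 and 2 members at an unadjusted p under 0.05. For Tyms, thymidylate synthase, on the replication list, 1 of the 3 other probe sets was called higher (1.06 ± 0.24, adjusted p = 0.00697), at 1.61 in set 1 and 0.51 in set 2, while the probe set that stands for it gave 0.38 ± 0.28. Bcl2 itself, at -0.68 ± 0.14, passed the p threshold (adjusted p = 0.00203). Of 9 class II antigen presentation genes 1, Cd74, was called higher (1.05 ± 0.21, adjusted p = 0.00157), beside 0.764% of all genes. The median was 0.172. Cd74 overlapped in set 1 and fell under the fold without ETP replicate 2 (0.90), ETP replicate 5 (0.94), ETP replicate 6 (0.98) or LSK replicate 4 (0.96).

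Some of the largest differences belonged to genes on none of the lists. Dzip1, a protein of the primary cilium, read 7.99, 8.61 and 8.60 on ETP arrays and 5.75, 4.83 and 5.08 on LSK arrays of set 1, and 8.66, 9.24 and 8.96 on ETP arrays and 5.64, 5.39 and 5.22 on LSK arrays of set 2. It rose by 3.36 ± 0.28 (adjusted p = 3.25e-10), with 1 of its other 4 probe sets called, and stayed at 7.86 in DN2 and 8.06 to 8.22 in DN3. AW011738, with no role given here, rose by 3.48 ± 0.27 (adjusted p = 1.09e-10) on all 3 probe sets and reached 11.08 in DN3 of set 1. Glis3, a zinc finger factor known from pancreas and kidney, rose by 2.45 ± 0.24 (adjusted p = 1.3e-08). It averaged 7.14 in ETP of set 1, 6.22 in ETP of set 2 and 6.80 in adult ETP, against 3.35 to 4.50 in the other populations. Sdc4, a heparan sulfate proteoglycan of the cell surface, fell by 4.05 ± 0.31 (adjusted p = 4.88e-11), at 3.46 to 5.52 on ETP arrays and 8.14 to 8.76 on LSK arrays, and was at 10.94 in pro-B.

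**Figure D5:**
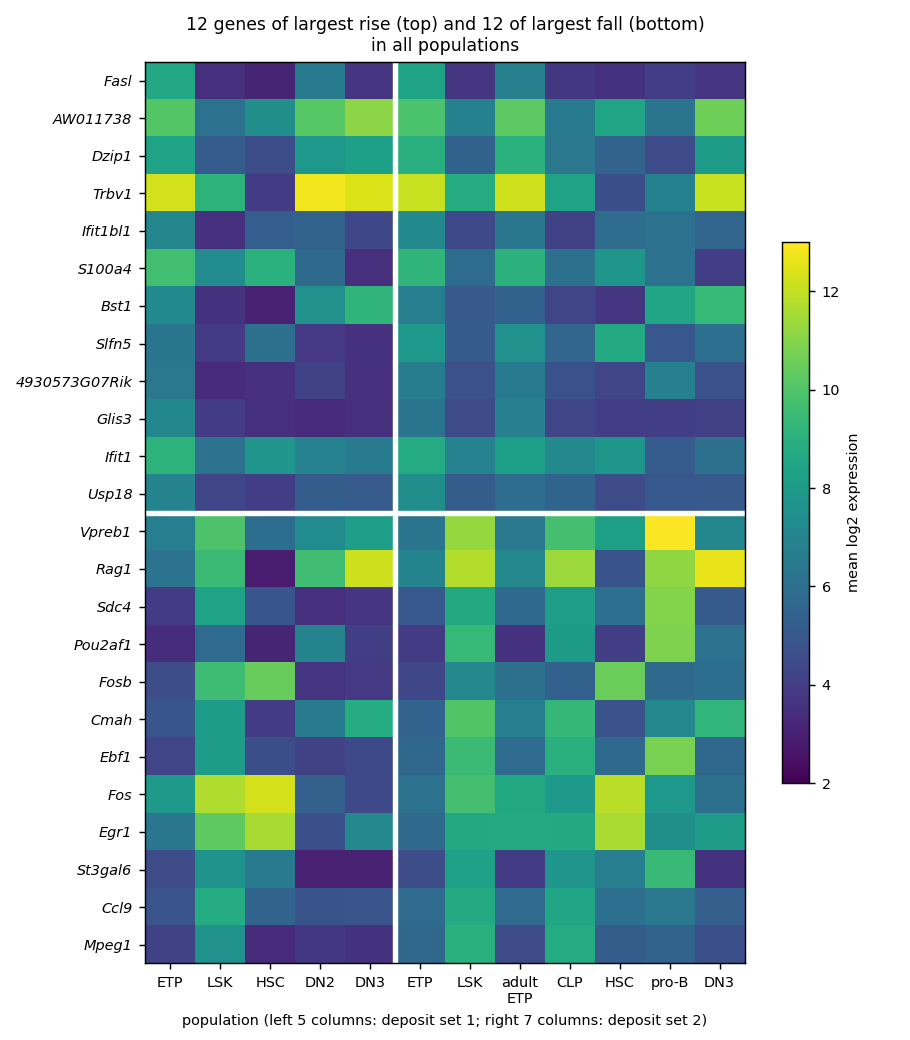
Mean log2 expression (colour) of the 12 genes with the largest rise (top) and the 12 with the largest fall (bottom) in ETP against LSK, in every population of set 1 (left) and set 2 (right); levels are compared within a set only. Fasl, Glis3 and Usp18 have their highest mean in ETP or adult ETP, Trbv1, Dzip1 and AW011738 stay high in DN2 and DN3, and Vpreb1, Ebf1, Pou2af1, Sdc4 and St3gal6 are highest in pro-B in set 2.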

How the data were processed

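Mouse one-colour arrays gave the deposited table of 45101 probe sets on 36 arrays. The authors' deposited values are read as log2 expression; they were made with RMA, per the submitters' processing notes, and its version and log base are not given in the sources used here. Probe sets with several genes, with none listed and the 64 controls were left out. No column was unused. Array medians differ between the sets, so levels are compared within a set.

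limma 3.58.1 in R 4.3.3 (lmFit, eBayes) was fitted with population and set as terms over all 36 arrays, whose 8 populations share the spread. On simulated data it recovered 94.0% of probe sets changed by 1.5 (log2) and 98.5% of those changed by 2, with 2 false calls. The simulated noise was normal and independent, with 1 spread per probe set, no outlying arrays and no change of the difference between the sets. The shares recovered hold for such data only. Named genes are the 12 largest rises and falls among called genes whose arrays do not overlap (by construction separate), the top 3 called members of each list (or 2 by p), the gate genes and the 5 called genes that differ most between sets. No named gene had probe sets called in opposing directions. Further list members are named as examples. The 31 lists hold 472 genes, 43 not measured by a single-gene probe set, and 2 lists were added after the values were seen. The members and lists were chosen with earlier results of these data known. Replicate numbers did not pair ETP with LSK arrays: the 6 correlations of same-numbered deviations ran from -0.163 to 0.09. Other settings, single sets and left-out arrays were tried. Arrays carry no read depth; precision rests on their number. Python 3.11.15 with matplotlib 3.10.9 drew the plots.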

Additional observations from a re-analysis of the deposited data

Results flagged for a closer look

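For each named gene the 6 ETP and the 6 LSK arrays, each centred on its array median, were searched for an array whose gap to the next exceeded Dixon's value of 0.625 of the range. Chance flags about 1 in 20 groups, and 9 of 160 groups were flagged, 6 of them on ETP replicate 3. That array was above the other ETP arrays for Fosb (gap 0.712 of the range), Egr1 (0.708), Ccl3 (0.817), Phlda1 (0.821) and Irf8 (0.627), and below them for Slfn5 (0.676). LSK replicate 2 was above the other LSK arrays for Tox (0.781) and Cd7 (0.689). ETP replicate 1 was above the other ETP arrays for Trbv13-2 (0.64). The search pools the 2 sets, whose array medians differ. As deposited, LSK replicate 2 read 4.67 for Cd7, below the 4.91 to 4.98 on LSK arrays of set 2, and ETP replicate 1 read 7.32 for Trbv13-2, within the 7.23 to 7.34 on ETP arrays of set 2, so that these flags rest on the centring. Each of the other 7 was also the highest or lowest array of its population as deposited. Without ETP replicate 3, 7 immediate early and heat shock genes were called lower in ETP.

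The difference between ETP and LSK itself changed between the sets for Blnk, by -2.48 (adjusted p = 0.0424), and for Cxcl2, by 4.68 (adjusted p = 0.019), in the limma fit across all probe sets.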

How the results depend on the processing

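Counts of called genes stayed within 1.5 times of 139 higher and 162 lower, and of 218 and 302 among probe sets, under all alternatives but 2. Against 1.5-fold with treat 64 genes were higher and 72 lower (94 and 114 probe sets), and with no fold threshold 273 and 334 (462 and 603 probe sets). With each array left out in turn, 128 to 144 genes were higher and 147 to 161 lower (209 to 230 and 276 to 301 probe sets). With a replicate block 132 genes were higher and 145 lower (213 and 273 probe sets), though whether the shared numbers are a pairing was not settled. Of the 66 called named genes 60 kept their call with this block and 6 lost it. The difference between the sets was called for 5 probe sets with the 12 ETP and LSK arrays alone and for 3 without low-mean probe sets, against 9, by construction fewer arrays or probe sets. Of the 66 called named genes 38 kept their call under each of the 28 alternatives that tested them and 59 with each array left out, and none turned its sign. In set 1 alone 55 of the 66 kept their call and in set 2 alone 52, among those lost in set 2 Ifit1 (1.86, adjusted p = 0.111), Fosb (-2.81, adjusted p = 0.21) and Nrarp (0.71, adjusted p = 0.662). The interferon-induced list had 12 to 28 members called over the alternatives, and the B cell receptor list 4 to 8 called lower. The causes were not tested. Of the 181 called genes with several probe sets 87 had another called alike and 0 another called in the opposite direction. Low signals limit differences near an array's floor.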
